A study of Mus musculus and Homo sapiens with 24 samples.

Results

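LHCN-M2 is a line of human skeletal myoblasts, immortalised with TERT and CDK4, whose cells fuse into myotubes once differentiation has begun. Described here is the later phase of that process: all genes of the 4 libraries taken at day 12 of differentiation, set against all genes of the 4 libraries taken at day 1. These are 8 of 24 libraries in a series that also holds day 0 of LHCN-M2 and 3 days of the mouse line C2C12. All 12 LHCN-M2 libraries have the genotype label control, and their labels name neither a drug nor a medium. Both immortalising genes are shared by all groups: TERT stood at 683 ± 99.7 CPM at day 12 and 528 ± 12.8 at day 1 (SD, n = 4 each), and was not called (log2 fold change 0.37, adjusted p = 0.103), while CDK4 stood at 64.99 ± 6.54 and 96.3 ± 6.43 CPM and was lower at day 12. TERT was called higher in a fit of days 1 and 12 alone (adjusted p = 0.00102), without replicate 2 of day 0 (adjusted p = 0.00109) and with no filter on low counts (adjusted p = 0.0349), and its day 12 replicates held 535, 726, 719.9 and 751 CPM. Reads of a transgene cannot be told apart from those of the cell's own gene in these counts. LHCN-M2 is 1 immortalised line, and the labels do not state whether the replicates of a day were separate cultures. P-values therefore rest on library-to-library spread alone, and that spread could be technical.

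When myoblasts differentiate, the transcription factors MYOD1 and MYOG, with MEF2 proteins, switch on genes of the contractile apparatus while the cells leave the cell cycle and fuse. Regulators and early contractile genes come first. Over the following days myotubes build sarcomeres, the repeating units of thick myosin and thin actin filaments, and the triads, the junctions at which a membrane voltage signal releases calcium from the sarcoplasmic reticulum. Developing human muscle uses embryonic (MYH3) and perinatal (MYH8) myosin heavy chains and the fetal form of the acetylcholine receptor before adult forms replace them.

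Polyadenylated RNA was counted per gene. Library totals were 33030258 to 44505597 counts at day 12 and 40403483 to 48546621 at day 1. Levels are given as CPM, read counts scaled to a common library total, and fold changes on the log2 scale as day 12 over day 1 with a standard error (SE). The labelled cell type was checked on 16 skeletal muscle markers. All 15 that passed the filter on low counts were higher at day 12. Summed over all 16, levels were 9006 to 11278 CPM at day 12 and 2319 to 2745 at day 1. The marker under the filter, myoglobin (MB), had 40 counts in all day 12 libraries and 2 in all day 1 libraries. PAX7, which marks resting muscle stem cells, had 0 counts on both days. Replicate 1 of day 12 stood apart from the other 3 libraries of its day. On the third principal component of log2 CPM, which held 5.87% of the variance, it lay at -22.3, against 4.41 to 9.27 for replicates 2 to 4. Its difference from the other day 12 libraries went with gene length: over 11402 genes with a mean of at least 5 CPM on either day, the Spearman rho between that difference and length was -0.531, against 0.211 to 0.367 in the other day 12 libraries and -0.34 to 0.196 in the day 1 libraries. In the 10% of genes with the longest transcripts its median log2 difference from the others was -0.204, and in the shortest 10% it was 0.205. These are correlations across genes of 1 library, which share its depth and preparation, and they are given as descriptions. Among long transcripts, the giant sarcomere protein gene titin (TTN) stood at 631, 1566, 1358 and 1459.8 CPM in day 12 replicates 1 to 4, and nebulin (NEB) at 651, 1579, 1408 and 1487 CPM. Both remained far above the day 1 libraries, which held 74.7, 73.4, 96.3 and 82.9 CPM of TTN and 55.1, 62.5, 83.4 and 72.8 CPM of NEB. What caused the difference was not tested. Without this library 13 of the genes named below as changed were no longer called: COX7A1, ENO2, IRF1, KIRREL1, MAP1LC3B, NEFM, PMVK, POLRMT, PSAP, TCF7L2, TFAM, TFB1M and TWNK. Such losses were not particular to it: leaving out any other single library of days 1 or 12 lost 9 to 13 named calls. Fold changes moved most without it, with a median absolute shift of 0.0524 on the log2 scale. Without any other single library of these days that shift was 0.0307 to 0.0383. Of all calls, 872 were lost without replicate 1 of day 12 and 866 to 1062 without any other single library of these days. Replicate 2 of day 0, which enters the shared estimate of spread, stood further apart on the same component, at -72.5 against 19.1 to 29.9 in the other day 0 libraries. Its rho with gene length was -0.561, against 0.359 to 0.481 in those libraries, and 468 genes differed at least 2-fold from the others of its day, against 5 to 30.

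**Figure D1:**
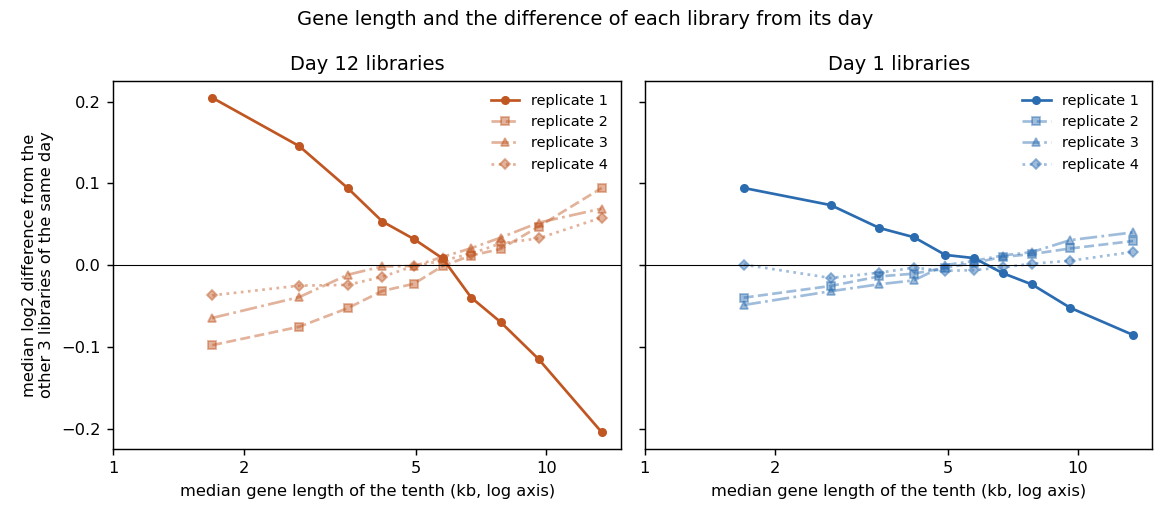
Median log2 difference of each library from the other 3 of its day (vertical axis) in 10 groups of genes ordered by length (horizontal axis, kb, log axis; left day 12, right day 1, 1 line per replicate). Replicate 1 of day 12 slopes from 0.205 in the shortest 10% to -0.204 in the longest, more steeply than any other library drawn.

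Of 18214 genes tested with edgeR's quasi-likelihood test, 3814 (20.9%) were higher at day 12 than at day 1 and 3433 (18.8%) were lower at an adjusted p under 0.05. At least 2-fold higher were 1508 (8.28%), and at least 2-fold lower 898 (4.93%). The median log2 fold change over all genes tested was -0.0041, beside which the median of each gene list is given in the same unit. Counts of list members that rose or fell are to be read beside the shares of 20.9% and 18.8%. The filter on low counts keeps a gene that is high on a single day. A member with 0 counts at day 1, such as MYL3, SLN or PVALB, could not have passed it there. Counts and medians of lists with such members therefore favour rises. The change was lopsided in size: 82 genes with a mean of at least 10 CPM at day 12 were at least 16-fold higher, and 0 genes of at least 10 CPM at day 1 were at least 16-fold lower; at 4-fold the numbers were 230 and 32. Without replicate 1 of day 12, 3489 genes were higher and 3143 lower. For every called gene whose 4 values on each day are printed, the day 12 and day 1 libraries did not overlap. These are named genes and not a sample of all calls, and the share of all calls without overlap is not given. The mitochondrial ribosomal RNA MT-RNR2, called lower, did overlap, with 5535 to 6284 CPM at day 12 and 6189 to 7584 at day 1. These are bulk libraries, so more RNA per cell and more cells of one kind cannot be told apart.

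Of the 15 largest rises among genes of at least 10 CPM, 10 were genes of the contractile apparatus or of calcium handling. Among the 15, 4 had 0 counts in every day 1 library: slow-type myosin-binding protein C, MYBPC1 (15.2, 17.6, 15.7 and 13.95 CPM at day 12, at least 912-fold higher against a limit of 3 counts over the day 1 group; GRCh38 chromosome 12, 101568353 to 101686018, plus strand); the calpain family member CAPN6 (10.4, 12.1, 14.3 and 13.8 CPM, at least 746-fold); triadin, TRDN, which anchors calsequestrin at the calcium release channel (9.17, 12.9, 10.4 and 12.96 CPM, at least 666-fold); and OR7E19P, an olfactory receptor pseudogene of a family of near copies, whose counts are therefore uncertain (9.995, 7.54, 11.1 and 12.2 CPM, at least 609.6-fold; chromosome 19, 9265440 to 9268819, minus strand). The actin filament nucleator LMOD2 had 2 counts over the day 1 libraries and 6253 over those of day 12, a ratio of 3467 (95% counting interval 959.8 to 28629). Sarcalumenin, SRL, a calcium-binding protein of the sarcoplasmic reticulum, had 1 and 2083, a ratio of 2309.9 (95% counting interval 415 to 91238). Each of these had at most 2 counts over all 4 day 1 libraries, and none was called between day 0 and day 1.

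Genes outside muscle contraction were also among the 15 largest rises. BCAS1, known from early myelin-forming cells, stood at 117, 122, 127 and 123 CPM in the day 12 libraries and at 0.168 ± 0.165 at day 1 (log2 fold change 9.51, SE 0.35, adjusted p = 2.96e-11). AIF1L, which encodes an actin-bundling protein, reached 106 ± 4.63 CPM against 0.291 ± 0.174 (log2 fold change 8.46, SE 0.28, adjusted p = 8.35e-12). LRRN1, a leucine-rich repeat membrane protein gene, reached 26.4 ± 3.53 CPM against 0.0803 ± 0.0835 (log2 fold change 8.32, SE 0.36, adjusted p = 4.28e-09). A lack of overlap between the day 12 and day 1 libraries was a condition for entering the 15 largest rises.

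The 15 largest falls among genes of at least 10 CPM were smaller than the rises and belonged to no single system. Heme oxygenase 1, HMOX1, which breaks down heme, fell to 33.8, 29.9, 30.1 and 28.9 CPM in the day 12 libraries, against 419, 381, 420.03 and 386 at day 1 (log2 fold change -3.71, SE 0.12, adjusted p = 6.1e-12). Neuronal pentraxin 2, NPTX2, stood at 35.03 ± 2.08 CPM against 250.1 ± 5.31, and had already fallen during the first day (log2 fold change -2.96). Of the 15 genes 12 had risen on the first day, beside 23.4% of all genes tested, HMOX1 by 1.37 on the log2 scale. Those with the largest first rise included the peptidase gene DPP4, with 67.1 CPM at day 12 and 386 at day 1 (log2 fold change -2.52, and 3.40 for day 1 over day 0), ATP2A3, a calcium pump of non-muscle cells (-2.51 and 3.79), the carbonic anhydrase-related gene CA11 (-2.32 and 3.32), the interferon-induced gene IFITM1 (-2.41 and 2.90), the antisense gene RUSC1-AS1 (-2.43 and 2.48) and FAM117A (-2.28 and 2.22). The interferon-induced IFI44L (-2.37 and 1.88), the WNT antagonist SFRP1 (-2.48 and 1.55), the membrane protein gene SECTM1 (-2.45 and 1.41), the potassium channel KCND1 (-2.62 and 0.92) and the matrix gene OLFML3 (-2.44 and 0.31) had risen less. Since both fold changes use the same day 1 libraries, an error in those libraries pushes them in opposite directions. Choosing genes for a fall from day 1 favours a first-day rise, so the count of 12 is a description only. The prostaglandin E receptor PTGER2 (-2.66) had fallen on the first day (-0.82), and the matrix gene FBLN1 (-2.44) was not called on it (-0.15). RUSC1-AS1 is named as antisense to RUSC1, and without a stated strand setting its reads cannot be told apart from those of its partner.

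The most abundant transcripts were matrix and mitochondrial ones on both days. Fibronectin, FN1, led with 17847 CPM at day 12 and 17579.5 at day 1, and was not called (log2 fold change 0.02). The mitochondrial MT-CO1 followed at day 12 with 14217 CPM, then the collagen COL1A1 with 13113, elongation factor EEF1A1 with 10257, the matrix protein SPARC with 8459.9, COL1A2 with 8152, the mitochondrial ribosomal RNA MT-RNR2 with 5852 and cardiac alpha-actin, ACTC1, with 5829. ACTC1 was the only sarcomere gene among the 10 highest at day 12; thrombospondin 1 (THBS1, 6600.2 CPM) and the ferritin light chain (FTL, 5014 CPM) held places among the 10 highest at day 1. MT-ND4 and MT-CO2 were in both groups of 10.

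**Figure D2:**
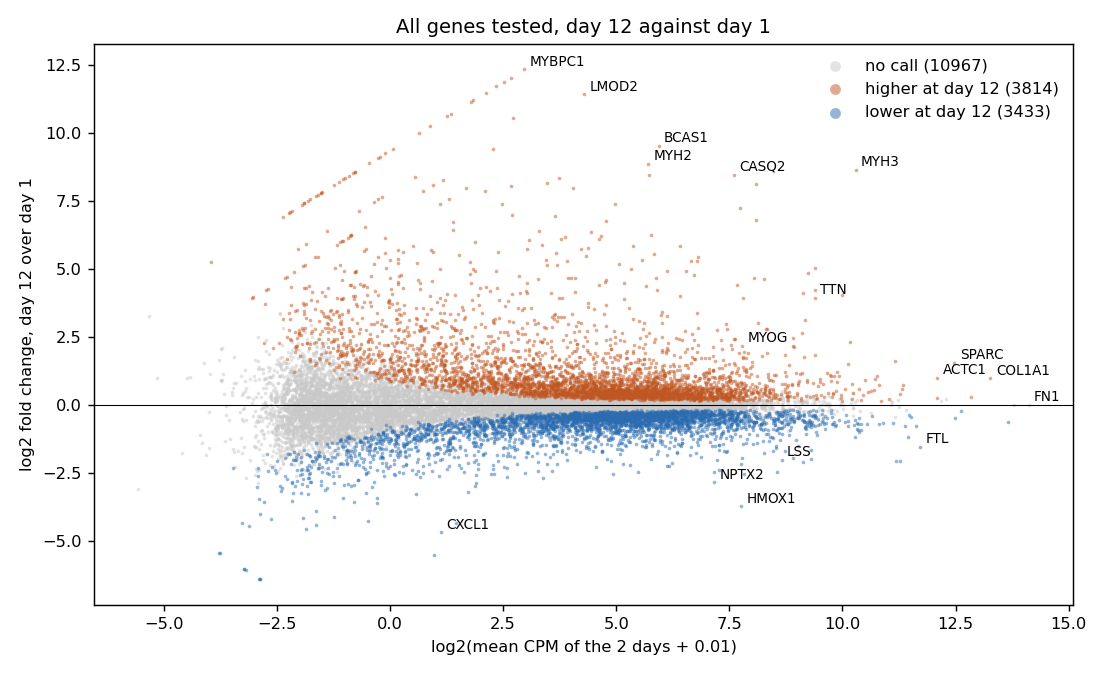
Log2 fold change, day 12 over day 1 (vertical axis), against log2 of the mean CPM of both days plus 0.01 (horizontal axis) for the 18214 genes tested; colours mark genes called higher (3814) or lower (3433) at day 12. The upper side reaches further from 0 than the lower side; the straight lines of points at the far left of each side are genes with 0 counts on a day, whose fitted fold depends on the prior count.

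Myosin heavy chain genes of the thick filament rose, and developmental forms were the most abundant. Embryonic MYH3 stood at 2202, 2588, 2527 and 2666 CPM in the day 12 libraries, against 8.39, 5.76, 5.49 and 5.30 CPM at day 1 (log2 fold change 8.65, SE 0.23, adjusted p = 1.32e-12; chromosome 17, 10628526 to 10657309, minus strand). Perinatal MYH8 reached 543 ± 44.9 CPM against 1.94 ± 0.197 (log2 fold change 8.13, SE 0.19, adjusted p = 7.16e-13), and MYH7, the slow and cardiac beta form, 541 ± 28.8 against 4.83 ± 1.29 (log2 fold change 6.80, SE 0.18, adjusted p = 1.38e-12). The adult fast form MYH2 reached 103, 103, 101 and 109 CPM against 0.390, 0.334, 0.0814 and 0.0959. The day 12 libraries lay above every day 1 library for each of them. The adult fast MYH1 (6.39 CPM at day 12 and 0.0224 at day 1), the cardiac alpha form MYH6 (12.6 CPM at day 12 and 0.0407 at day 1) and MYH7B (9.33 CPM at day 12 and 1.46 at day 1) rose too, whereas MYH13 and MYH15 were not called. MYH4, an adult fast form, stayed below the filter with 32 counts over the day 12 libraries and 0 over those of day 1. In all, 7 of 9 tested heavy chain genes rose and 0 fell, beside 20.9% and 18.8% of all genes. Their median log2 fold change was 7.96, beside -0.0041 over all genes. MYH6, with 0 counts at day 0 and 8 at day 1, passed the filter only through day 12, which favours rises in this count.

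Per kilobase of gene length, which allows levels of different genes to be set side by side, MYH3 made up 65.2% ± 0.744 of the tested heavy chain signal at day 12 (SD, n = 4), MYH8 15.7% ± 0.355, MYH7 15.6% ± 0.816 and MYH2 2.75% ± 0.189. MYH6, MYH7B and MYH1 each stayed under 0.4%. MYH8 and MYH7 did not differ beyond their spread. At day 1 the whole family stood at 17.5 to 20.003 CPM, against 3329 to 3946 at day 12, so shares at day 1 rest on few counts: 33.004% ± 6.22 for MYH3 and 28.4% ± 8.39 for MYH7. Heavy chain genes resemble one another in sequence, and how reads that fit several genes were counted is not given in the sources used here, so the minor forms are uncertain.

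**Figure D3:**
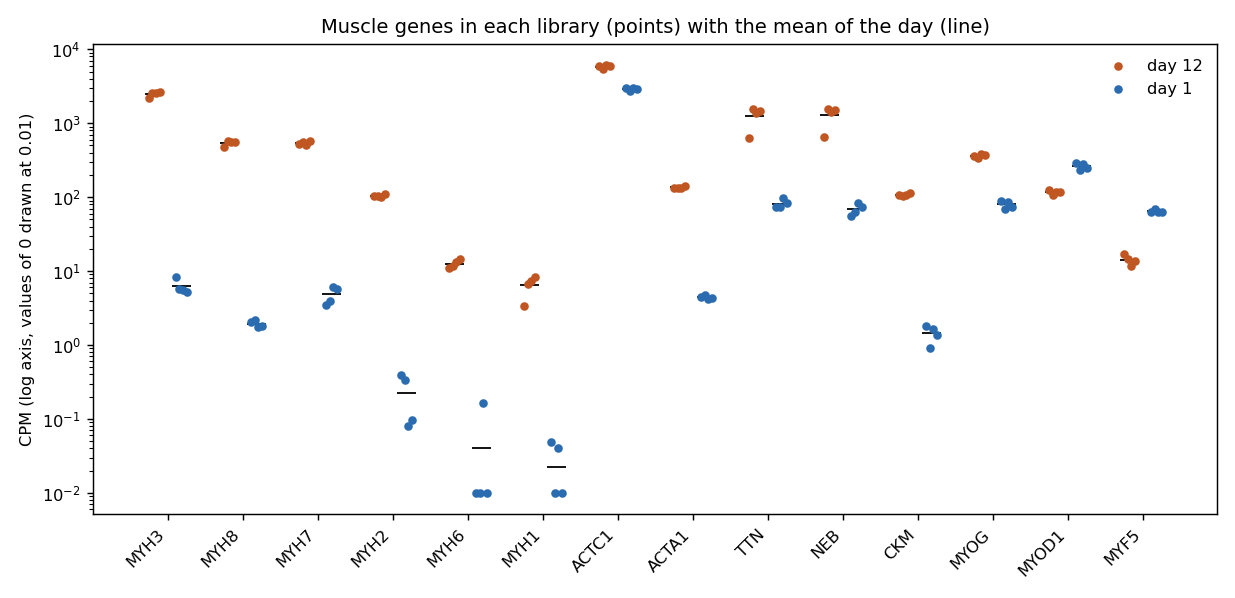
CPM of 14 muscle genes in each library (points; log axis, values of 0 drawn at 0.01) with the mean of each day (line), day 12 left of day 1. The 4 day 12 libraries lie above the 4 day 1 libraries for every gene shown except MYOD1 and MYF5, where they lie below; replicate 1 of day 12 is the low point of TTN and NEB.

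The rest of the sarcomere followed. All 17 tested thin filament genes rose (median 4.03), from the end-capping and filament-building genes down to tropomyosins. Skeletal alpha-actin, ACTA1, stood at 134, 133, 132 and 142 CPM at day 12 and 4.49, 4.74, 4.25 and 4.34 at day 1 (log2 fold change 4.93, SE 0.16, adjusted p = 8.35e-12), and ACTC1, the actin of heart and developing muscle, at 5892, 5467, 6065 and 5894 at day 12, against 2963, 2691, 3005 and 2923 at day 1 (log2 fold change 1.01, SE 0.08, adjusted p = 8.65e-08). Per kilobase, ACTC1 exceeded ACTA1 at day 12, with 1267 and 90.6 CPM per kilobase. The calcium switch of the thin filament is troponin: the fast-type subunits TNNI2 (21.99 CPM at day 12 and 0.0745 at day 1), TNNC2 (81.3 CPM at day 12 and 1.41 at day 1) and TNNT3 (215 CPM at day 12 and 5.47 at day 1) rose by 8.16, 5.85 and 5.30 on the log2 scale. TMOD1, which caps the pointed end of the filament, rose by 6.37. The smallest rise of the list was that of KLHL41 (0.31, adjusted p = 0.00316), which stabilises nebulin. TNNI3, TMOD4 and NEBL were under the filter with 10, 0 and 12 counts at day 12.

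Of the myosin light chains, 6 of 9 rose and 0 fell (median 3.92). Those that rose were the fast regulatory MYLPF (1169.7 ± 74.98 CPM against 40.6 ± 5.69, log2 fold change 4.85, SE 0.16, adjusted p = 8.35e-12), the fast essential MYL1 (196 CPM at day 12 and 5.01 at day 1), the embryonic and atrial MYL4 (417 CPM at day 12 and 27.5 at day 1), MYL6B (217 CPM at day 12 and 62.6 at day 1), and the slow and cardiac MYL2 (24.9 CPM at day 12 and 0.200 at day 1) and MYL3, which had 0 counts at day 1 and 112 at day 12 (at least 41.4-fold higher). Among titin, M-band and myosin-binding genes, 12 of 16 rose and 2 fell (median 4.13). The M-band, which ties thick filaments together in the middle of the sarcomere, was represented by MYOM3 (92.01 CPM at day 12 and 2.24 at day 1) and MYOM1 (51.7 CPM at day 12 and 2.24 at day 1); UNC45B, a chaperone of myosin, rose by 4.76, the small stretch-related protein gene SMPX by 6.22 and the ubiquitin ligase TRIM54 by 4.59. The genes that fell were the fast-type MYBPC2 (2.66 CPM at day 12 and 6.34 at day 1, log2 fold change -1.26) and the ligase TRIM55 (153 CPM at day 12 and 253 at day 1, -0.73). MYBPC2 had 0 counts over the day 0 libraries and 1125 over those of day 1, so within this protein family the slow member rose and the fast member fell between day 1 and day 12.

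The Z-disc anchors the thin filaments at both ends of the sarcomere. Of 23 tested Z-disc genes 16 rose and 0 fell (median 1.402). Muscle alpha-actinin, ACTN2, the crosslinker of the disc, stood at 402, 420.5, 431 and 446 CPM in the day 12 libraries and at 3.24, 1.80, 3.17 and 3.02 at day 1 (log2 fold change 7.24, SE 0.17, adjusted p = 7.16e-13). LDB3, which stabilises the disc, rose to 112 CPM against 2.36, the LIM protein CSRP3 to 26.9 against 0.381, and MYOZ2 to 69.5 against 3.08. XIRP2 had 0 counts at day 1 (at least 504-fold higher at day 12), and NRAP, a scaffold of myofibril assembly, rose to 4.27 CPM against 0.0244.

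The regulators of myogenesis did not move as one group: 5 of 21 rose and 6 fell (median 0.04; -0.01 without replicate 3 of day 12 and 0.07 without replicate 3 of day 1). MYOG, the factor of terminal differentiation, stood at 362, 339.6, 378 and 369 CPM at day 12 and 89.9, 69.3, 86.1 and 73.7 at day 1 (log2 fold change 2.18, SE 0.10, adjusted p = 5.83e-09). The factors of the myoblast state went the other way. MYOD1 fell to 126, 105, 119 and 118 CPM at day 12, against 286, 235, 280.3 and 245 at day 1 (log2 fold change -1.16, SE 0.11, adjusted p = 8.01e-07), and MYF5 to 14.2 ± 2.09 CPM against 64.6 ± 3.19 (log2 fold change -2.19, SE 0.10, adjusted p = 2.6e-10). On the first day MYOD1 had risen by 2.23 on the log2 scale and the log2 change of MYF5 was -2.06. MYF6, the factor of mature fibres, was low and not called (7.78 CPM at day 12 and 7.39 at day 1). MEF2C (361 CPM at day 12 and 92.3 at day 1, log2 fold change 1.97), MEF2A (1.04), the cofactor VGLL2 (1.21) and TEAD4 (0.95) rose with MYOG.

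Inhibitors of myogenesis were lower more often than higher, 6 of 13 against 2 (median -0.54; -0.87 without replicate 1 and -0.31 without replicate 4 of day 12, and -0.22 without replicate 1 of day 1). The Notch target HEY1 fell by 1.48 on the log2 scale, as did the repressor SNAI2 (-1.34; 75.9 CPM at day 12 and 192 at day 1), HEYL (-1.24), TWIST2 (-1.05) and TWIST1 (-0.99), while the repressor MSC, also known as MyoR, rose by 1.17 (37.4 CPM at day 12 and 16.6 at day 1). BHLHE40 was the other riser (0.36). Among fusion and adhesion genes 10 of 21 rose and 4 fell (median 0.29), and the pair of genes that drive fusion parted ways. Myomaker, MYMK, rose to 222, 206, 231 and 216 CPM in the day 12 libraries, against 5.12, 3.83, 5.92 and 5.13 at day 1 (log2 fold change 5.45, SE 0.13, adjusted p = 2.96e-11). Myomixer, MYMX, fell to 45.9, 33.3, 40.5 and 36.6 CPM, against 74.2, 56.1, 70.4 and 56.3 (log2 fold change -0.72, SE 0.15, adjusted p = 0.00152), after a rise of 5.08 on the first day. The adhesion receptors NCAM1 (884 CPM at day 12 and 259 at day 1), CDON (1.41) and BOC (0.86) and the tetraspanin CD9 (0.94) rose. The genes that fell beside MYMX were DYSF (-0.58), KIRREL1 (-0.47) and EHD2 (-0.34); without replicate 2 of day 0, which enters the shared fit, 8 fusion and adhesion genes were called lower.

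The machinery that couples membrane voltage to contraction was higher at day 12 in most of its genes. Of 19 triad genes 14 rose and 2 fell (median 1.70). CACNA1S, the voltage sensor, stood at 92.6, 116, 120.1 and 125 CPM at day 12 and 5.34, 4.74, 8.58 and 5.54 at day 1 (log2 fold change 4.23, SE 0.19, adjusted p = 6.02e-09), its partner CACNG1 at 40.9 CPM at day 12 and 0.745 at day 1, and junctophilin 1, JPH1, which holds the membranes together, at 8.21 CPM at day 12 and 0.402 at day 1. CACNG6 rose by 2.88 and SYPL2, a protein of the triad membrane, by 2.72. JSRP1 (-0.83) and ASPH (-0.65) fell, and 1 member instead of 2 was called lower without replicates 2, 3 or 4 of day 12, without replicates 1, 3 or 4 of day 1, and in DESeq2.

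In the calcium store, calsequestrin 2, CASQ2, the storage protein of slow and cardiac muscle, reached 361, 406, 378 and 395 CPM in the day 12 libraries, against 1.61, 0.334, 1.34 and 1.08 at day 1 (log2 fold change 8.46, SE 0.29, adjusted p = 1.27e-11). HRC, another calcium-binding protein of the store, reached 167 ± 8.18 CPM against 2.94 ± 0.846, and the pump-inhibiting micropeptide MRLN (myoregulin) 29.5 ± 1.73 against 0.741 ± 0.267. Sarcolipin, SLN, another pump inhibitor, and parvalbumin, PVALB, a calcium buffer, had 0 counts at day 1 and 1097 and 336 at day 12 (at least 406-fold and 124-fold higher). In all, 9 of 13 genes of this list rose and 1, ATP2A3, fell (median 3.03).

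Of the ion channels and pumps of the muscle membrane, 12 of 16 rose and 0 fell (median 1.88). The adult muscle sodium channel SCN4A stood at 50.7 ± 5.42 CPM at day 12 and 3.93 ± 0.588 at day 1 (log2 fold change 3.69, SE 0.14, adjusted p = 1.25e-09). The channel subunit SCN3B rose by 3.50 and the potassium channel KCNC4 by 3.05. The chloride channel gene CLCN1 stayed under the filter, with 4 counts at day 12 and 1 at day 1. At the neuromuscular junction 9 of 15 genes rose and 0 fell (median 0.85). The fetal receptor subunit CHRNG reached 263, 318, 309.8 and 331 CPM in the day 12 libraries, against 69.2, 61.2, 74.8 and 62.3 at day 1 (log2 fold change 2.19, SE 0.16, adjusted p = 5.78e-08), while the adult subunit CHRNE stood at 0.0854 ± 0.0596 and 0.308 ± 0.137 CPM and was not called. The delta subunit CHRND rose by 1.74, LRP4, the receptor for the nerve signal agrin, by 2.42, acetylcholinesterase, ACHE, by 2.35, DOK7 by 0.99 and ERBB3 by 0.86.

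Genes of the dystrophin complex, which links the cytoskeleton to the matrix, were split, with 7 of 18 higher and 5 lower (median 0.11). Dystrophin, DMD, stood at 123, 208, 182 and 191 CPM at day 12 and 44.5, 42.5, 50.9 and 45.7 at day 1 (log2 fold change 1.94, SE 0.18, adjusted p = 8.13e-07), and sarcospan, SSPN, rose by 1.11, DTNA by 0.96 and SGCD by 0.88. SNTB2 (-0.85), SGCA (-0.57) and SGCE (-0.40) were among those that fell. DMD is a long gene too, and its day 12 replicate 1 was the lowest of the day.

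Muscle-type energy enzymes were higher at day 12, and most called genes of general glycolysis were lower. Of 19 muscle energy genes 15 rose and 2 fell (median 0.57). Muscle creatine kinase, CKM, stood at 108, 105, 106 and 114 CPM at day 12 and 1.81, 0.912, 1.65 and 1.37 at day 1 (log2 fold change 6.24, SE 0.17, adjusted p = 1.54e-12). Muscle enolase, ENO3, reached 115 ± 8.71 CPM against 14.1 ± 0.760; the glycogen-targeting phosphatase subunit PPP1R3A (7.84), muscle fructose bisphosphatase FBP2 (5.17), muscle glycogen phosphorylase PYGM (2.97) and AMP deaminase AMPD1 (2.77) rose from low levels. PGM1 (-0.29) and the glycogen branching enzyme GBE1 (-0.56) fell. In the list of general glycolysis genes 10 of 21 fell and 2 rose (median -0.20), though with no filter on low counts 6 fell. GAPDH fell to 1475 ± 75.7 CPM against 2334 ± 23.3 (log2 fold change -0.66, SE 0.08, adjusted p = 5.67e-06), as did the lactate exporter SLC16A3 (-0.69), hexokinase HK2 (-0.49) and the brain-type aldolase ALDOC (-2.01); PFKL, the liver-type phosphofructokinase, rose by 0.96 and ENO2 by 0.33, and 1 of these was called without replicate 1 of day 12 or without replicates 1, 2 or 3 of day 1.

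The 13 protein-coding genes of the mitochondrial genome took 4.35% ± 0.236 of all counts at day 12 and 3.79% ± 0.225 at day 1 (SD, n = 4 each), a difference of 0.559 percentage points. The exact two-sided permutation test over the 8 libraries gave p = 0.0286, the smallest p that 4 against 4 allows; p was 0.0571 without any 1 of the day 12 libraries or without replicate 4 of day 1. Of these genes 6 rose and 0 fell; the complex I genes MT-ND6 (1105 CPM at day 12 and 604 at day 1) and MT-ND5 (3237 CPM at day 12 and 1919 at day 1) rose by 0.87 and 0.75, while MT-CO1 was not called (0.02). MT-ND6 lies on the strand opposite to most of its neighbours, so its reads could be confused with theirs if strand was not used. Of 50 nuclear oxidative phosphorylation genes 13 rose and 0 fell (median 0.19). This count rested on single libraries: 8 rose and 1 fell without replicate 1 of day 12 (median 0.11), 24 rose and 3 fell without replicate 2 of day 0, and 21 rose and 5 fell without both. The muscle form of a cytochrome oxidase subunit, COX6A2, rose to 8.64 ± 1.77 CPM against 0.974 ± 0.513 (log2 fold change 3.13, SE 0.33, adjusted p = 1.12e-05), and COX7A1, another muscle form, by 1.97; cytochrome c, CYCS (127 CPM at day 12 and 79.6 at day 1), and NDUFS1 (164 CPM at day 12 and 105 at day 1) rose by 0.68 and 0.64.

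In the citric acid cycle 9 of 17 rose and 2 fell (median 0.23), led by mitochondrial isocitrate dehydrogenase, IDH2, at 131, 133, 132 and 140.3 CPM at day 12 and 48.7, 47.5, 47.1 and 49.4 at day 1 (log2 fold change 1.48, SE 0.09, adjusted p = 8.18e-09), and pyruvate carboxylase, PC (1.08). SUCLG2 (-0.73) and DLST (-0.21) fell, 1 of them without replicate 4 of day 12. In fatty acid uptake and oxidation 10 of 24 rose and 2 fell (median 0.31; 10 and 6 without replicates 1 of day 12 and 2 of day 0). The fatty acid transporter CD36 reached 41.5, 41.4, 42.99 and 41.6 CPM in the day 12 libraries, against 3.07, 4.12, 3.28 and 4.12 at day 1 (log2 fold change 3.52, SE 0.19, adjusted p = 1.67e-09). PDK4, the kinase that turns off pyruvate oxidation, rose by 3.40, UCP2 by 3.17, ANGPTL4 by 2.54, the oxidation enzyme ECHS1 by 0.98 and ETFDH by 0.92. FABP3 (-0.39) and FABP5 (-0.69), fatty acid carriers, fell. Few regulators of mitochondrial biogenesis were called: TWNK (0.35) and POLRMT (0.30) rose and TFAM (-0.22) and TFB1M (-0.45) fell among 15 (median -0.05, or -0.08 to -0.01 with 1 library left out), and 0 of the list were called without replicate 1 of day 12, without replicate 4 of day 12 or without replicate 2 of day 1. PPARGC1A, the coactivator of this programme, stood at 3.23 CPM at day 12 and 3.52 at day 1 and was not called; it was picked out after its value was seen.

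Mitosis genes were higher at day 12 than at day 1, at levels under those of day 0. Of 34 mitosis genes 28 rose and 1 fell between day 1 and day 12 (median 0.90). On the first day 33 of them had fallen and 1 had risen (median -3.38 for day 1 over day 0), where 23.4% of all genes were higher and 23.5% lower. Summed, they ranged over 3536 to 4071 CPM in day 0 libraries, over 584 to 643 in day 1 libraries and over 859 to 988 in day 12 libraries. The proliferation marker MKI67 stood at 35.6, 52.3, 47.2 and 47.03 CPM at day 12 and 21.003, 22.9, 17.96 and 20.3 at day 1 (log2 fold change 1.15, SE 0.19, adjusted p = 0.000213). The largest rises of the list were in kinetochore, spindle and cytokinesis genes, the centromeric histone CENPA by 2.18, NUF2 by 1.83, the kinesin KIF20A by 1.78, the checkpoint kinases TTK and BUB1 by 1.45 and 1.42, and anillin, ANLN, by 1.35 (65.8 CPM at day 12 and 25.9 at day 1). The phosphatase CDC25B was the 1 that fell (-0.36). Replicate 1 of day 12 was the highest in the summed level, at 988 CPM against 859 to 890, and all 4 day 12 libraries lay above the day 1 libraries.

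Of the DNA replication genes, 9 of 35 were higher and 4 lower (median 0.25), 14 and 6 without replicate 2 of day 0, and 7 and 5 without replicate 1 of day 12 (median 0.14). Without replicate 3 of day 1 the median was 0.15. Of all genes tested, 20.9% were higher and 18.8% lower. All 35 replication genes had fallen on the first day. CDC6, which loads the helicase, rose by 0.72, GINS3 by 0.64 and RRM1 by 0.59; PRIM1, TYMS, MCM2 and MCM7 fell (log2 fold changes -0.74, -0.66, -0.44 and -0.33). Among G1 cyclins and E2F factors E2F8 rose by 3.81 on the log2 scale (11.3 CPM at day 12 and 0.801 at day 1), CDK6 by 1.03, CCNE1 by 0.69, E2F1 by 0.66 and CCND1 by 0.27, and CCND3, E2F4 and MYC fell (log2 fold changes -1.13, -0.74 and -0.39); 6 genes of this list fell without replicate 2 of day 0. Cell cycle inhibitors rose in the same interval, 6 of 12 against 2 lower (median 0.35). CDKN1A, or p21, stood at 2298, 2164, 2221 and 2331 CPM at day 12 and 1361, 1295, 1421 and 1334 at day 1 (log2 fold change 0.74, SE 0.07, adjusted p = 7.11e-07), CDKN1C, or p57, at 234 ± 15.03 and 90.9 ± 12.2 (log2 fold change 1.36, SE 0.11, adjusted p = 1.78e-07), and CDKN2B, or p15, at 291 ± 8.77 and 98.4 ± 6.47 (log2 fold change 1.57, SE 0.07, adjusted p = 2.64e-10). GADD45G and GADD45B rose by 1.04 and 0.61, and CDKN2C (-0.71) and BTG2 (-0.56) fell. Other p53 targets were lower more often than higher, 9 of 20 against 4 (median -0.22): TP53INP1, XPC, FDXR and CCNG1 fell (log2 fold changes -0.79, -0.76, -0.76 and -0.63), and RRM2B rose by 0.85.

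Cholesterol synthesis genes were lower at day 12. Of 23 genes 21 fell and 1, PMVK, rose (median -1.07), and PMVK was not called without replicate 1 of day 12 or replicate 1 or 2 of day 1. Day 0 libraries held 1962 to 2123 CPM of them in sum, day 1 libraries 6946 to 7212 and day 12 libraries 3061 to 3235. INSIG1, a feedback sensor of sterols, stood at 213, 218, 216 and 209 CPM in the day 12 libraries and at 912, 942, 860.1 and 909.8 at day 1 (log2 fold change -2.08, SE 0.06, adjusted p = 6.13e-12). Lanosterol synthase, LSS, fell to 160.02 ± 7.78 CPM against 645 ± 28.6 (log2 fold change -2.01, SE 0.07, adjusted p = 1.4e-11), as did HSD17B7 (-1.70), MVD (-1.67), HMGCS1 (-1.49) and DHCR7 (-1.31). On the first day 22 genes of the list had risen and 0 had fallen (median 1.68), and the contrasts share the day 1 libraries.

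Iron and oxidative defence genes also fell. In the list of NRF2 targets, ferritins and metallothioneins 11 of 17 fell and 2 rose (median -1.16), HMOX1 being among those that fell. The ferritin light chain, FTL, stood at 1953, 1558, 1762 and 1655 CPM at day 12 and 5395, 5022, 4872 and 4767 at day 1 (log2 fold change -1.53, SE 0.15, adjusted p = 1.02e-06), and the reductase NQO1 at 306 ± 12.6 and 954 ± 42.5 (log2 fold change -1.64, SE 0.11, adjusted p = 1.56e-08). The metallothionein MT1M fell by 2.28, and MT1A had 0 counts at day 12 and 34 at day 1; metallothionein genes are near copies of one another, so single members are uncertain. The genes that rose were the cystine transporter SLC7A11 (1.17) and GCLC (0.49). The summed level of the list was 3921 to 4528 CPM at day 12 and 9499 to 10365 at day 1.

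Interferon-stimulated genes were lower at day 12, with 21 of 33 fallen and 2, HLA-B and IRF1, risen (median -1.10). The day 1 libraries differed widely among themselves in these genes and those of day 12 did not. The antiviral effector IFIT1 stood at 92.4, 74.8, 81.6 and 71.6 CPM in the day 12 libraries and at 498, 169, 413 and 338 at day 1 (log2 fold change -2.15, SE 0.42, adjusted p = 0.000827). MX1 stood at 51.6, 46.5, 50.05 and 48.2 CPM in the day 12 libraries, against 265, 74.1, 246 and 154 at day 1, and IFI44L at 51.3, 47.5, 50.8 and 49.5 at day 12, against 352, 129, 321 and 229.9 at day 1. Replicate 2 of day 1 was the lowest of its day for all 3 genes and still above every day 12 library. ISG15 fell by 2.03 on the log2 scale, as did MX2 (-2.07) and IFITM1 (-2.41). With all members summed, day 12 replicates held 6317, 5664, 5489.7 and 5629.9 CPM and day 1 replicates 9860.1, 5458, 8426 and 7589, so the groups overlapped through replicate 2 of day 1; B2M and the HLA genes, which make up much of that sum, did not fall. The count of falls was 16 without replicate 1 of day 1 and 25 without replicate 2 of day 1, and the 2 rises were 1 when any library of these days other than replicate 4 of day 1 was left out.

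Cytokine and complement genes fell in 12 of 22 cases and rose in 4 (median -0.51). The chemokine CXCL1 had the largest change of the list, with 0.366, 0.120, 0.158 and 0 CPM at day 12 and 5.12, 4.36, 2.99 and 4.34 at day 1 (log2 fold change -4.67, SE 0.53, adjusted p = 5.87e-06). CXCL3 and CXCL8 fell (log2 fold changes -2.51 and -2.86), as did complement C3 (-2.04). The cytokine gene IL32 rose to 332, 291, 302 and 303 CPM, against 47.8, 41.8, 40.1 and 45.6 at day 1 (log2 fold change 2.81, SE 0.20, adjusted p = 3.24e-08). SAA1, LIF and IL11 were the others that rose (2.26, 0.90 and 0.79).

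**Figure D4:**
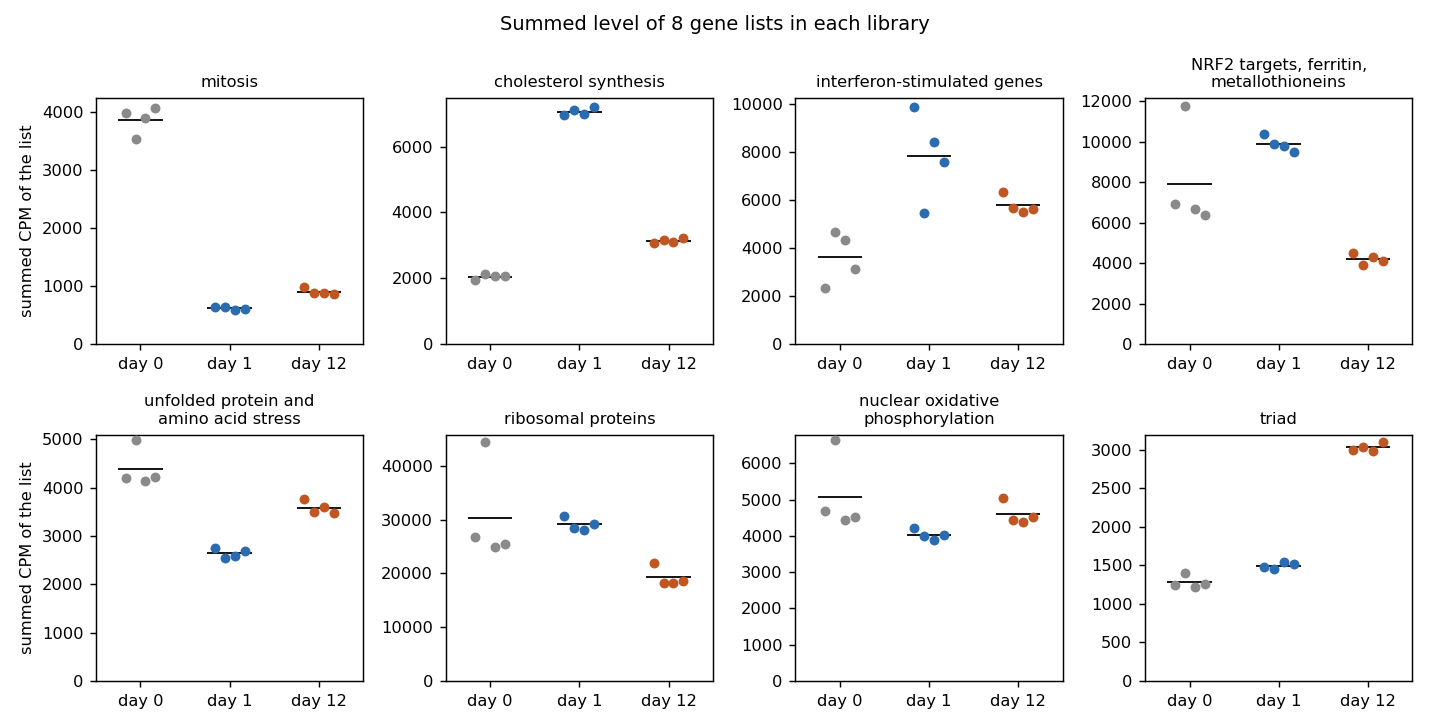
Summed CPM of 8 gene lists in each library (points) with the mean of the day (line) at days 0, 1 and 12. Mitosis genes drop by day 1 and regain a little by day 12, cholesterol genes peak at day 1, triad genes are highest at day 12, and replicate 2 of day 0 and replicate 1 of day 12 stand above their days in ribosomal protein genes.

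Genes that cells switch on when amino acids run short or proteins misfold in the endoplasmic reticulum were higher at day 12. Of 24 genes of the unfolded protein and amino acid stress response 17 rose and 1, DDIT4 (-1.39), fell (median 0.53), with 2 falls without replicate 2 of day 0. TRIB3, a pseudokinase induced by the factor ATF4, stood at 38.4, 33.99, 40.3 and 40.03 CPM at day 12 and 4.34, 2.51, 2.81 and 2.88 at day 1 (log2 fold change 3.61, SE 0.17, adjusted p = 5.72e-10), and CHAC1, which breaks down glutathione, at 25.1 ± 2.35 and 1.62 ± 0.350 (log2 fold change 3.95, SE 0.17, adjusted p = 1.21e-10). The serine synthesis enzymes PSAT1 and PHGDH reached 195 ± 6.56 and 68.2 ± 5.67 CPM at day 12, against 27.2 ± 2.96 and 20.9 ± 1.06 at day 1. Asparagine synthetase, ASNS, rose by 3.07 and ATF5 by 1.44, whereas the transcript of ATF4 itself was not called (258 CPM at day 12 and 252 at day 1; picked out after its value was seen). Of the heat shock genes 9 of 18 rose and 4 fell (median 0.21); the small heat shock proteins of muscle HSPB8 (117 CPM at day 12 and 24.3 at day 1), HSPB7 (1.68), CRYAB (202 CPM at day 12 and 81.9 at day 1) and HSPB3 (0.76) rose, and the inducible HSPA1B fell by 0.78.

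Ribosomal protein genes fell together by a modest amount: 36 of 43 fell and 0 rose (median -0.59). RPL12 stood at 430.5 ± 34.3 CPM at day 12 and 741 ± 34.6 at day 1 (log2 fold change -0.78, SE 0.14, adjusted p = 0.000426), and RPS9, RPL8, RPL7A and RPS3 fell (log2 fold changes -0.81, -0.73, -0.72 and -0.71). Summed over the list, day 12 replicates held 21997, 18203, 18137 and 18613 CPM and day 1 replicates 30733, 28513, 27988 and 29273. Replicate 1 of day 12, with relatively more counts on short genes, was the highest of its day and still under every day 1 library. Ribosomal protein genes have many pseudogenes that can share their reads. On the first day 2 of these genes rose and 1 fell. Day 0 replicates held 26830, 44487, 24825 and 25410 CPM in sum. All but replicate 2, which had relatively more counts on short genes, lay under every day 1 library. The few first-day calls therefore do not show that these genes stayed level.

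Lysosome and autophagy genes fell in 13 of 29 cases and rose in 5 (median -0.17; 3 without replicate 1 of day 12 or replicate 3 of day 1). Lysosomal acid lipase, LIPA, fell to 83.3 ± 3.11 CPM against 228 ± 6.49 (log2 fold change -1.45, SE 0.08, adjusted p = 1.25e-09), as did progranulin, GRN (-0.87), BNIP3L (-0.82), GUSB (-0.71) and the protease CTSL (-0.69), while the protease CTSK rose by 1.15. PSAP, ULK1, GABARAPL1 and MAP1LC3B were the others that rose (0.23, 0.56, 0.56 and 0.23). The muscle ubiquitin ligases and kelch proteins rose in 8 of 9 tested cases (median 1.60), and the other one, NEDD4, was not called. This list held 16 genes, and those under the filter are not in the count. KLHL40, which stabilises thin filament proteins, rose to 24.9 ± 2.80 CPM against 0.718 ± 0.342 (log2 fold change 5.13, SE 0.27, adjusted p = 2.39e-08), KLHL31 by 4.69, ASB2 by 5.34, TRIM63, or MuRF1, by 4.32, KLHL30 by 1.60 and FBXL22 by 1.16.

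Growth factor lists held both rises and falls. In the IGF system 5 of 19 rose and 8 fell (median 0.09, or 0.06 to 0.14 with any 1 library of either day left out; 9 and 8 without replicates 1 of day 12 and 2 of day 0). The binding protein IGFBP5 reached 924, 1088, 1128 and 1118 CPM in the day 12 libraries, against 58.8, 66.7, 63.2 and 57.3 at day 1 (log2 fold change 4.11, SE 0.21, adjusted p = 1.01e-09). IGFBP3 reached 781 ± 32.99 CPM against 173 ± 5.76, and IGFBP1 rose by 4.99 from a low level; IGFBP7 and IGFBP2 were the others that rose. HMGA2, a chromatin protein of growing and fetal cells, fell to 12.97 ± 1.23 CPM against 58.2 ± 6.15 (log2 fold change -2.16, SE 0.11, adjusted p = 9.73e-10), as did HMGA1 (-1.14) and IGFBP6 (-1.22). Among TGF-beta, myostatin and BMP genes 11 of 25 rose and 9 fell (median 0.23, or 0.38 without replicate 4 of day 1): the ligands INHBB, TGFB2, TGFB3 and GDF15 rose by 2.32, 1.64, 1.37 and 1.24, the antagonist FSTL3 rose by 1.72 (202 CPM at day 12 and 61.5 at day 1), and the BMP antagonist NOG fell by 1.504.

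In the Notch list 5 of 15 rose and 3 fell, beside 20.9% and 18.8% of all genes (median -0.08). The sign of this median depended on single libraries: it was 0.09, 0.0096 and 0.19 without replicates 1, 2 and 4 of day 12, and 0.0044 and 0.39 without replicates 3 and 4 of day 1. The ligand JAG2 rose by 1.41, JAG1 by 0.56, the modifier LFNG by 1.21, NOTCH1 by 0.55 and HES4 by 1.59; the ligand DLL1 fell by 1.38, beside the targets HEYL and HEY1. In the WNT list 10 of 26 rose and 9 fell (median 0.26; 0.09 without replicate 1 of day 12, and 0.42, 0.16 and 0.17 without replicates 1, 3 and 4 of day 1). The receptor FZD8 reached 47.8 ± 2.49 CPM against 10.2 ± 1.03 (log2 fold change 2.22, SE 0.11, adjusted p = 5.45e-10), the ligand WNT4 rose by 3.14, SFRP4 by 2.99 and the feedback gene NKD1 by 2.00, and the antagonists SFRP1 and WIF1 fell (log2 fold changes -2.48 and -2.97). Immediate early genes rose in 10 of 24 cases and fell in 4 (median 0.53). EGR2 stood at 22.9, 23.3, 30.4 and 27.1 CPM at day 12 and 2.81, 2.74, 2.14 and 3.40 at day 1 (log2 fold change 3.23, SE 0.16, adjusted p = 7.63e-10), EGR3 rose by 2.32, KLF2 by 1.73, KLF4 by 1.41, IER3 by 1.15 and DUSP6 by 0.94; JUND, IER5, FOSL2 and IER2 fell (log2 fold changes -0.73, -0.69, -0.63 and -0.54). In the list of clock genes and glucocorticoid targets 6 of 24 rose and 4 fell (median 0.13). The counts of 6 and 4 were near the shares of all genes tested, 20.9% higher and 18.8% lower. Without replicates 1 of day 12 and 2 of day 0, 10 rose and 4 fell. The clock output gene HLF rose by 3.66, FOXO1 by 0.98, PER2 by 0.90 and NR1D2 by 0.69; FKBP5, a target of the glucocorticoid receptor, fell by 1.32, as did FOXO3 (-1.06), KLF9 (-0.44) and ARNTL (-0.44).

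Genes of the extracellular matrix rose more often than they fell. Of 32 interstitial matrix genes 17 rose and 9 fell (median 0.43). Elastin, ELN, stood at 566, 572, 605 and 631 CPM in the day 12 libraries and at 24.5, 21.2, 27.6 and 22.9 at day 1 (log2 fold change 4.63, SE 0.13, adjusted p = 1.42e-12). Connective tissue growth factor, CTGF, reached 498 ± 23.5 CPM against 62.4 ± 4.35 (log2 fold change 3.00, SE 0.07, adjusted p = 7.61e-13), periostin, POSTN, 336 ± 20.2 against 61.6 ± 5.22, and COL6A3 95.7 ± 11.95 against 19.1 ± 1.39. SPARC reached 8459.9 ± 142 CPM against 2885 ± 141, and COL1A1 13113 ± 472 against 6619.9 ± 628. Biglycan, BGN, rose by 2.86 from a low level (0.723 CPM at day 12 and 0.0976 at day 1), and fibulin 1, FBLN1, fell to 13.97 CPM against 75.9.

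In the basement membrane, the sheet that surrounds each fibre, 9 of 21 genes rose and 4 fell (median 0.18; 14 and 4 without replicates 1 of day 12 and 2 of day 0). COL15A1 reached 171, 208, 216 and 209.9 CPM, against 22.7, 19.9, 17.2 and 17.997 at day 1 (log2 fold change 3.37, SE 0.12, adjusted p = 2.06e-11). The laminin receptor ITGA6 reached 1044 ± 58.4 CPM against 293 ± 25.2, COL4A1 and COL4A2 rose by 1.44 and 1.13 and COL4A5 by 1.07, and ITGA3 fell by 0.65, beside ITGB5, LAMA5 and LAMB1. Of the metalloproteases and inhibitors 7 of 17 rose and 5 fell (median 0.26): TIMP3, an inhibitor bound to the matrix, reached 259.7 ± 14.8 CPM against 38.2 ± 3.49, MMP11 330.04 ± 19.4 against 60.8 ± 3.32, and MMP1 rose by 5.23 to 2.93 CPM. ADAMTS2 and ADAMTS12 rose by 1.06 and 0.74, and MMP3 fell by 1.32.

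The cytoskeleton and RNA processing showed smaller, mixed changes. Of 17 intermediate filament, lamin and tubulin genes 7 rose and 5 fell (median 0.23). Nestin, NES, reached 2341 ± 113 CPM against 1128 ± 77.9 (log2 fold change 1.05, SE 0.08, adjusted p = 1.51e-07), the tubulins TUBA1A, TUBB2A, TUBB2B and TUBB6 rose by 1.10, 0.99, 0.98 and 0.94, and TUBB3 fell by 1.68. Tubulin genes are close in sequence and may share reads. Among the splicing regulators of muscle 7 of 16 rose and 3 fell (median 0.21). RBFOX1 stood at 44.8, 51.5, 47.5 and 50.7 CPM at day 12 and 7.76, 5.52, 6.84 and 5.51 at day 1 (log2 fold change 2.92, SE 0.27, adjusted p = 6.83e-07), while its relative RBFOX2 fell to 179 ± 21.02 CPM against 341 ± 14.8 (log2 fold change -0.93, SE 0.12, adjusted p = 2.23e-05). SRPK3, RBM38 and PTBP2 rose by 1.21, 0.96 and 0.78, and HNRNPA1 and PTBP1 fell (log2 fold changes -0.75 and -0.72). Non-coding and imprinted genes rose in 5 of 18 cases and fell in 8 (median -0.37): the host transcripts of muscle microRNAs MIR133A1HG (2.98) and MIR1-1HG rose at low levels, LINCMD1 by 1.81 (37.1 CPM at day 12 and 10.6 at day 1), MYOSLID by 1.30 and H19 by 0.75, and NEAT1 and MEG9 fell (log2 fold changes -0.99 and -0.995). These transcripts can overlap others on the opposite strand, so their counts are uncertain.

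Markers of other cell types were measured beside these groups. The summed level of 16 listed fibroblast markers was 17524 to 18322 CPM at day 12 and 9450.2 to 11165 at day 1, most of it COL1A1. Of 13 tested, 5 rose (MFAP5, LUM, COL1A1, PDGFRB and COL3A1) and 4 fell (FBLN1, THY1, TCF7L2 and DCN). The markers DPT, TCF21 and PI16 had 4, 0 and 0 counts at day 12. Of 10 tested smooth muscle markers 7 rose and 1, MYLK (-0.89), fell (median 0.71). Sums over the 13 listed were 5667 to 5809 CPM at day 12 and 3646 to 3894 at day 1. ACTA2, SYNPO2 and TAGLN rose by 1.25, 1.19 and 1.11. Differentiating skeletal muscle also expresses these genes, so they do not tell the cell types apart. The smooth muscle myosin MYH11 was not called (0.570 CPM at day 12 and 0.615 at day 1). The part of such cells in the matrix result was not tested.

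Adipocyte markers summed to 129 to 138 CPM at day 12 and 68.3 to 79.4 at day 1 over 12 listed genes. Of 6 tested, CD36 and PNPLA2 rose and PPARG and PLIN4 fell. ADIPOQ, LEP and LPL had 0 counts at day 12. Bone and cartilage markers summed to 88.2 to 99.2 and 129.9 to 139.5 CPM over 12 listed genes. Of 5 tested, COL10A1 (22.3 CPM at day 12 and 1.28 at day 1) and SPP1 were higher and RUNX2, SOX9 and ALPL lower. SP7 and IBSP had 0 counts at day 12. Neural markers summed to 26.8 to 31.9 and 40.7 to 42.4 CPM over 13 listed genes. Of 9 tested, MAP2 and NEFM were higher, and TUBB3, NEFL and NEFH were among those lower. Only 1 was higher without replicates 1, 2 or 4 of day 12 or 1, 2 or 3 of day 1. Immune and endothelial markers summed to 24.1 to 30.3 and 25.3 to 28.7 CPM over 14 listed genes. Of 8 tested, TEK (12.2 CPM at day 12 and 1.94 at day 1) and VWF rose, and KDR and CLDN5 fell. CD3E, AIF1 and CDH5 had 0 counts at day 12. Of TEK and VWF, 1 was called without replicate 2 of day 12 or without replicates 1 or 4 of day 1. Of 14 tested myoblast markers 6 rose and 6 fell, and the receptor NGFR rose by 1.99 and FGFR4 had a log2 fold change of -1.04.

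**Figure D5:**
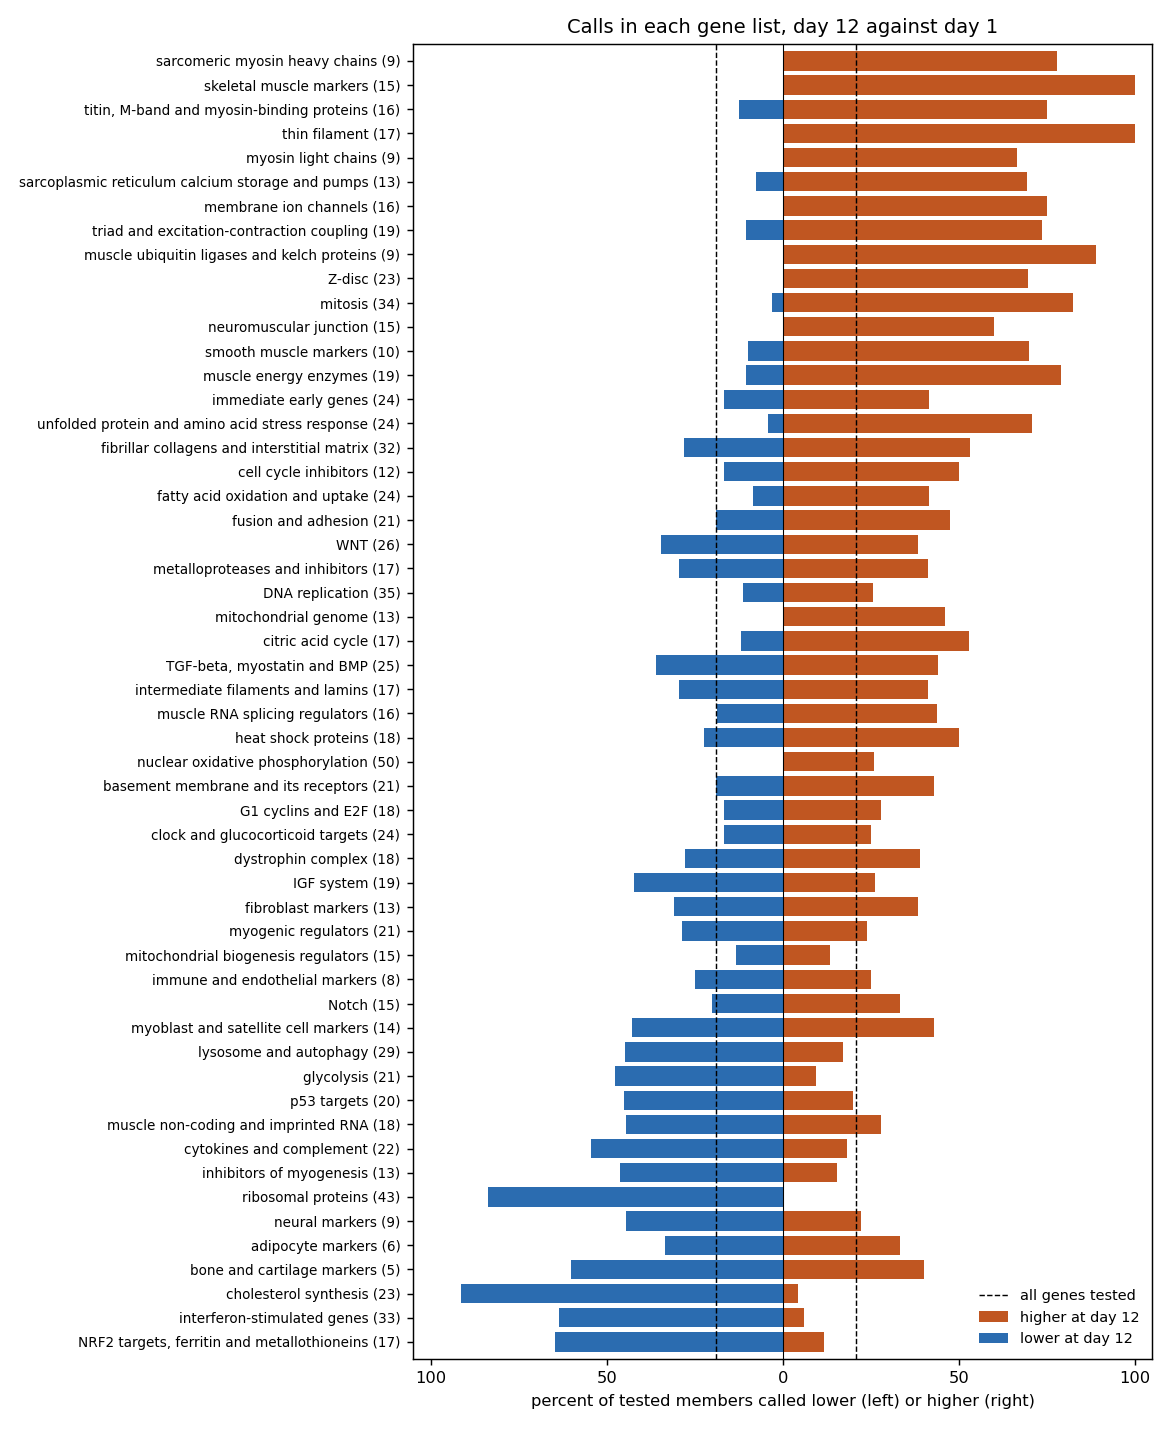
Percent of the tested members of each gene list (number in brackets) called higher (right) or lower (left) at day 12, ordered by median log2 fold change, with the shares of all genes tested as dashed lines (20.9% higher, 18.8% lower). Muscle structure lists stand at the top with most members higher, and cholesterol synthesis, interferon-stimulated genes, NRF2 targets and ribosomal proteins near the bottom with most members lower.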

How the data were processed

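RNA from 12 LHCN-M2 libraries, 4 at each of days 0, 1 and 12, was captured with poly-T beads, per the labels' protocols. Per the submitters' processing notes, the tools include featureCounts 2.0.6 and HISAT2 2.2.1, beside fastp and StringTie 2.2.3, and the builds include GRCh38. The annotation release and strand setting were not stated. The deposited table holds raw read counts per gene, with 58735 genes. Coordinates are those of that table.

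All 12 libraries entered 1 model with a coefficient per day, in edgeR 4.0.16 under R 4.3.3 (TMM scaling, filterByExpr, quasi-likelihood test), and day 12 was contrasted with day 1. P-values were Benjamini-Hochberg adjusted over the 18214 genes tested, which held 99.9% of the counts, with a threshold of 0.05. Every adjusted p printed is from this fit, except those given for TERT in named alternative fits. Those were adjusted over the genes tested in the fit named. The genes named are the 15 largest rises and falls of at least 10 CPM, the 10 highest of each day, the leading called members of 54 gene lists and a panel of muscle genes; some genes that these rules name are not reported here. The comparison, the lists and these rules were chosen with earlier results of these data known. On data simulated from the means, totals and fitted dispersions of these libraries, the test found 140 of 192 changed genes with 5 false calls. Far fewer genes were changed there than were called here. The simulated libraries held no difference that goes with gene length, so these numbers do not give the error rate of the real data. Intervals and lower bounds cover counting error only. Alternatives were library scaling, filters, DESeq2 1.42.0, limma 3.58.1, a replicate block and leaving out libraries. No pairing by replicate number was detected: deviations from the group means correlated between day 12 and day 1 by -0.00865 to 0.0914. Differences between single libraries could hide a weak pairing, so these values cannot exclude one.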

Additional observations from a re-analysis of the deposited data

Results flagged for a closer look

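In 782 groups of 4 libraries, the day 12 and the day 1 values of every gene named and of the gene list sums and library totals, 54 had a highest or lowest library whose gap to its neighbour, as a share of the group's range, exceeded Dixon's 95% critical value for 4 values. Chance alone gives about 1 in 20 groups. Of these 24 concerned replicate 1 of day 12. The gap as a share of the range is given beside each name.

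ADAMTS12 (0.887), CCND1 (0.882), COL15A1 (0.83), FN1 (0.915), LAMA5 (0.925), MEF2C (0.86), MYH11 (0.891), PDGFRB (0.908), SGCD (0.892), SLC7A11 (0.928), SYNPO2 (0.857), TERT (0.857), THBS1 (0.906) and XIRP2 (0.874) had the lowest value of day 12 in replicate 1. CDKN2B (0.911), CTSL (0.83), EEF1A1 (0.941), ENO2 (0.931), HMGA1 (0.925), HNRNPA1 (0.989), ISG15 (0.932), RPL7A (0.833), ribosomal proteins (sum) (0.877) and neural markers (sum) (0.866) had the highest value of day 12 in replicate 1. GRN (0.857), HSPB7 (0.852) and MYL4 (0.902) had the lowest value of day 12 in replicate 2. PPP1R3A (0.894) had the highest value of day 12 in replicate 2. CD36 (0.85) had the highest value of day 12 in replicate 3. AMPD1 (0.897) had the highest value of day 12 in replicate 4. ACHE (0.886), HEY1 (0.914), HSD17B7 (0.906), MYC (0.832), MYH3 (0.849) and NRAP (1.0) had the highest value of day 1 in replicate 1. ACTN2 (0.844), COL1A2 (0.839), DLL1 (0.831), IER2 (0.858), MMP11 (0.839) and TERT (0.902) had the lowest value of day 1 in replicate 2. LMOD2 (1.0), MYF5 (0.83), RUSC1-AS1 (0.864) and SUCLG2 (0.87) had the highest value of day 1 in replicate 2. PLIN4 (0.918) had the lowest value of day 1 in replicate 3. BTG2 (0.872), H19 (0.859), MYH6 (1.0) and PPP1R3A (1.0) had the highest value of day 1 in replicate 3. CCNE1 (0.855) had the lowest value of day 1 in replicate 4. CACNG6 (0.847) and SRL (1.0) had the highest value of day 1 in replicate 4. For LMOD2, SRL and the other values of 1.0, a single day 1 library held all counts of its day.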

How the results depend on the processing

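Across the alternatives 3348 to 4712 genes were higher and 2933 to 4449 lower at day 12, against 3814 and 3433, and 0 of the 7247 calls reversed. Without replicate 1 of day 12, 6372 of those calls were kept. Without replicate 2 of day 0, 4685 genes were higher and 4449 lower, and without both libraries, a setting chosen after seeing the data, 4679 and 4399. Of all calls 52.6% were higher; with RLE size factors it was 55.6%, with library totals alone 50.1% and in DESeq2 56.1%. The fit with the replicate number as a block called 3591 higher and 3225 lower.

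The difference in the mitochondrial share, 0.559 percentage points, was 0.449 to 0.663 when 1 library was left out. The exact permutation p was 0.0571 in 5 of these 8 cases (0.559, 0.629, 0.449 and 0.599 without replicates 1 to 4 of day 12, and 0.488 without replicate 4 of day 1). That is above 0.05; in the other 3 cases p was 0.0286. Of the genes named as changed or among the highest, 19 lost their call without some single library: the 13 listed for replicate 1 of day 12, and DLST, JSRP1, LAMA5, MT-RNR2, PRIM1 and VWF. FN1 was called higher (0.126) without both libraries that stood apart. With at least 1 CPM in 4 libraries the median of the calcium store genes was 5.30 and that of the cytokine genes -1.17, and in the fit of days 1 and 12 alone that of the metalloproteases was 0.09. Low counts limit the minor myosins, channels and cytokines, where a few reads decide the level. The promoter motif description planned at the outset was not run, since no human promoter sequence was used here.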
